A study of Mus musculus with 8 samples.

Results

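ATP-binding cassette (ABC) transporter genes were followed across the livers of 8 female Ames dwarf mice. They were chosen by symbol. Every probe set with exactly 1 gene symbol beginning Abca, Abcb, Abcc, Abcd, Abce, Abcf or Abcg and a digit was taken, which gave 28 probe sets of 12488 and 25 genes of 8251 named genes. The brightest probe set stood for a gene with several. The rule left out 1 member of the B subfamily, which is not analysed here.

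The mice were homozygous for the Ames dwarf mutation (df/df), which stops the anterior pituitary from making growth hormone, prolactin and thyrotropin, and all of them were calorie restricted. Their ration was 30% below what freely fed female dwarfs ate, and they were killed at an age of 24 to 26 months. All 8 livers form 1 group, with 1 Affymetrix U74Av2 array each. Fully fed dwarf mice and mice with a normal pituitary are not analysed here, so every comparison is between livers, and each p-value rests on these 8 samples.

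ABC proteins bind and split ATP, and most of them use it to move a substrate across a membrane. In the hepatocyte some sit in the canalicular membrane and form bile, others in the sinusoidal membrane return conjugates to blood, and others serve peroxisomes, mitochondria or lysosomes. The E and F subfamilies have the ATP-binding domains without a membrane-spanning part and act on ribosomes.

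Several ABC genes of the liver are controlled by nuclear receptors, which bind half-sites such as AGGTCA. STAT factors bind TTCNNNGAA, and interferon-stimulated elements hold a core of GAAA, any 2 bases and GAAA. These letters were searched for, on both strands, in the 250 bases before the annotated start (RefSeq, GRCm38.p6), where 13 of the 18 genes bright enough to test had 16 windows. AGGTCA was in 3 of the 16 windows and in 14% of all 32851 promoters, TTCNNNGAA in 1 of 16 and 7.02%, and that interferon core in 0 of 16 and 2.98%. A match is a string of letters and no binding was measured. An Abcd3 window and the Abcc2 window are shown. They were picked because Abcd3 is the member with the steepest fall on the interferon response score described further on. The Abcc2 slope on that score was near 0 over all 8 livers. Capitals mark AGGTCA, TTCNNNGAA or the interferon core. The Abcd3 window shown, chr3:121815303-121815552 on the minus strand, has 72% G and C and holds none of them. Another Abcd3 window, chr3:121814910-121815159, has 75.2% and holds none either. The Abcc2 window, chr19:43782058-43782307 on the plus strand, has 45.6% and 1 AGGTCA.
Abcd3: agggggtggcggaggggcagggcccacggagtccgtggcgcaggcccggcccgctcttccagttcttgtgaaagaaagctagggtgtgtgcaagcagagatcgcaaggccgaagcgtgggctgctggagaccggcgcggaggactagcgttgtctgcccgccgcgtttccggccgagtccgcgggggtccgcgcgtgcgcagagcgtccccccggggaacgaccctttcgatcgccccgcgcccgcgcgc
Abcc2: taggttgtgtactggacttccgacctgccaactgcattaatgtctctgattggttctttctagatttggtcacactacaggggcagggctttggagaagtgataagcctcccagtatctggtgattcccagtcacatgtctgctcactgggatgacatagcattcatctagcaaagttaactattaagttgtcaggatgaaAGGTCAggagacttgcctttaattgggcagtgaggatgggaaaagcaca
Abcg1, Abcc6, Abcc3, Abcb8 and Abcd2 had no entry in that table.

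Of the 25 genes, 18 had a mean intensity of at least 165.2 (the median of all values in the table) and were tested, among 6265 probe sets that passed the same limit. Intensity is the deposited brightness of a probe set on a linear scale; it depends on the probes, so levels are compared between livers only, never between genes. The smallest mean inside the limit was that of Abcf3, at 184 ± 50.5 (SD, n = 8), and the largest outside it was that of Abcc9, at 136 ± 28.9. The 7 dim genes were Abca4 (mean 63.2), Abcb1b (21.1), Abcc1 (27.6), Abcc8 (54.0), Abcc9, Abcd4 (130) and Abcf2 (91.9). Abcb1b, one of the paired P-glycoprotein genes of the mouse, was at or below the floor of 37.2 in all 8 livers, and Abcc1, an exporter of conjugates made in most tissues, in 6 of 8. Abcc8 and Abcc9 encode the sulfonylurea receptors of the ATP-sensitive potassium channel. Dim probe sets give no evidence of absent transcripts.

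In the 18 tested genes the livers were mostly alike. The highest liver was less than 2 times the lowest in 13 genes, and at least 2 times in Abca2, Abcc5, Abcd3, Abcf3 and Abcg1. Spread was tested as the ratio (F) of a probe set's variance of log2 intensity between livers to the variance expected at its brightness, by limma's squeezeVar with Benjamini-Hochberg adjustment over all tested probe sets. That gave 0 of 18 members, and 0 of 6265 probe sets (0%). At an unadjusted p under 0.05 it gave 1 member (5.56%), Abca2, and 400 probe sets (6.38%). The median SD was 0.28 on the log2 scale over the members and 0.24 over all tested probe sets, and 14 of the 18 members had an F above the median of all. The largest F ratios were 6.87 for Abca2, 4.09 for Abcd3 and 3.11 for Abcg1, and the lowest adjusted p of a member was 0.774. Over all tested probe sets the lowest adjusted p of this F test was 0.265. Even Ubd, an interferon response gene with a 201-fold range, was not called, so the 0 for members says little.

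The livers themselves differed mostly along 1 axis. The first principal component held 47.1% of the variance, with mice 6 and 8 at one end and mouse 5 at the other. Each liver was given 4 scores, each the mean over the tested genes of a list of log2 intensity minus the gene's own mean. The lists were interferon response (20 genes tested of 27 listed), macrophage markers (17 of 23), fatty acid oxidation (20 of 25) and sterol synthesis (16 of 23). For mice 1 to 8 the macrophage score was −0.26, −0.01, 0.02, −0.78, −0.82, 1.69, −0.91 and 1.06, and the interferon response score was −0.14, 0.03, 0.80, −1.38, −1.37, 1.97, −1.46 and 1.54. Both scores were highest in mice 6 and 8 and lowest in mice 4, 5 and 7. The fatty acid oxidation score ran the other way, at −0.61 and −0.43 in mice 6 and 8 and between −0.00 and 0.31 in the rest. These 3 scores follow each other so closely that their fits are not independent and cannot be told apart, whereas the sterol synthesis score does not order the livers in this way.

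**Figure D1:**
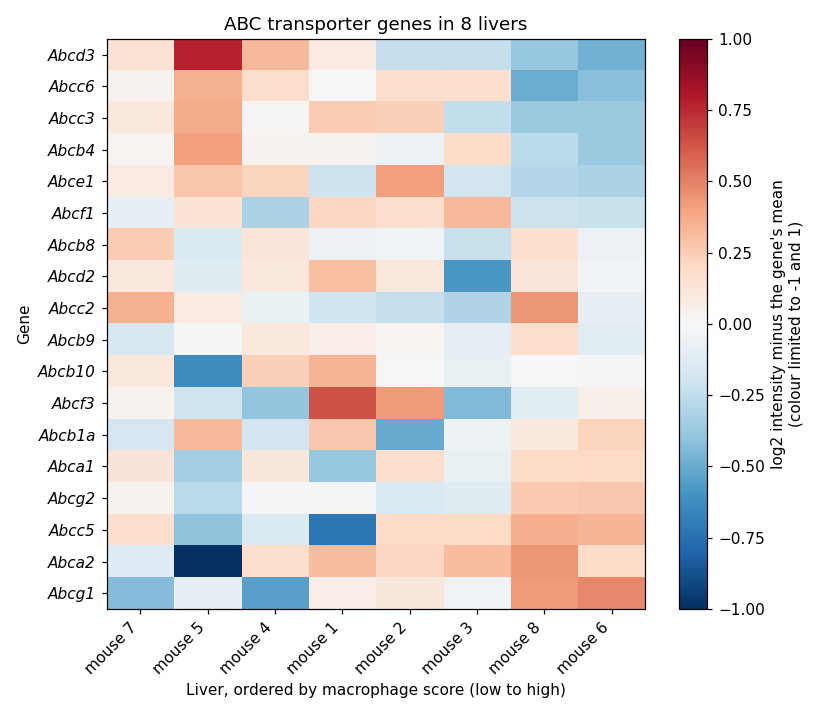
Log2 intensity of the 18 tested ABC genes in each of 8 livers, minus the gene's mean, as colour (limited to −1 and 1); columns are livers ordered from the lowest to the highest macrophage score and rows are genes ordered by slope. Abcd3 and Abcc6 are low, and Abcg1 is high, in mice 6 and 8, and Abca2 in mouse 5 (intensity 124) is the deepest blue.

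Each gene's log2 intensity was fitted as a slope on each score with limma, and a slope was called at a Benjamini-Hochberg adjusted p under 0.05 over all tested probe sets outside the score's own list. On the interferon response score 1 member of 18 rose, Abcg1, and 1 fell, Abcd3. Over all probe sets 488 of 6241 were called (7.82%), 308 rising (4.94%) and 180 falling (2.88%). On the macrophage score Abcg1 rose and Abcd3 and Abcc6 fell, against 533 of 6245 (8.53%), with 333 rising (5.33%) and 200 falling (3.2%). On the fatty acid oxidation score Abcc6 rose and Abcg1 fell, against 534 of 6243 (8.55%), with 185 rising (2.96%) and 349 falling (5.59%). With 2 or 3 of 18 members called, the family's count is near that of all probe sets. On the sterol synthesis score the fit called 0 of 18 members and 0 of 6244 probe sets (0%), and at an unadjusted p under 0.05 it gave 0 members and 96 probe sets (1.54%).

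The median slope of the members was −0.00 on the interferon response score and 0.01 on the macrophage score, and −0.01 on both over all tested probe sets. At an unadjusted p under 0.05 there were 6 of 18 members (33.3%) on the interferon response score, against 23.1% of all, and 7 of 18 (38.9%) on the macrophage score, against 23.8%. Array scaling matters for the direction of the background. The array medians lay between −0.18 (mouse 5) and 0.10 (mouse 8) on the log2 scale from the median of the table. With every array scaled to a common median, the share of rising calls went from 63.1% to 39.2% on the interferon response score, from 62.5% to 46.2% on the macrophage score and from 34.6% to 68.3% on the fatty acid oxidation score. With quantile normalization those shares were 57.3%, 57.9% and 37.1%. Under both scalings Abcg1 still rose and Abcd3 still fell on the interferon response and macrophage scores. Scaling to a common median added falls of Abcc3 and Abcc6 on the interferon response score, and on the fatty acid oxidation score it gave 5 rising members (Abcb4, Abcc3, Abcc6, Abcd3 and Abce1) with Abcg1 no longer called (adjusted p = 0.0555).

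**Figure D2:**
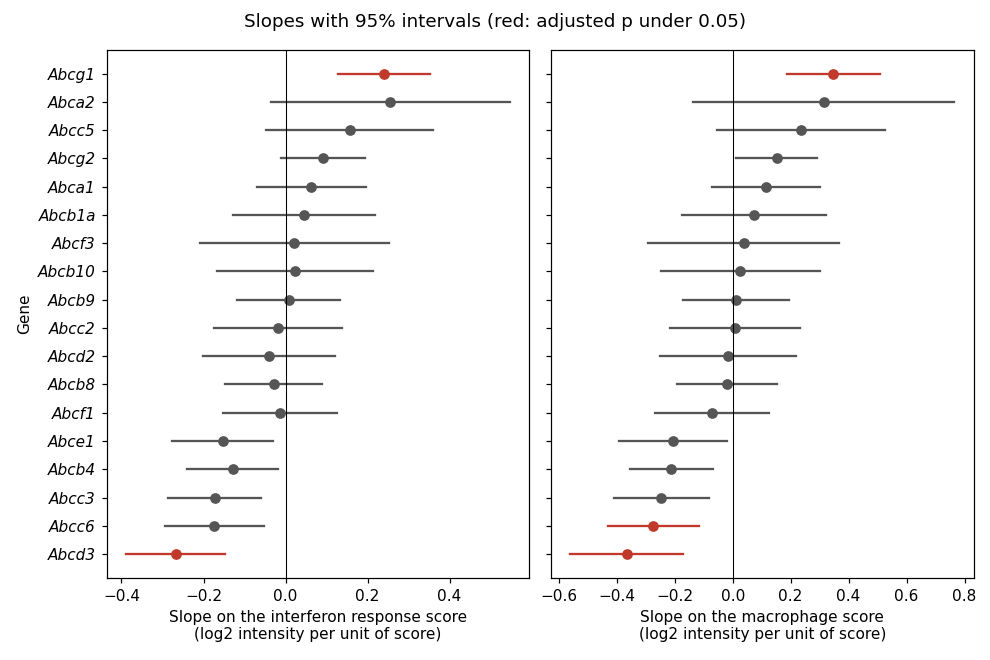
Slope of log2 intensity per unit of the interferon response score (left) and of the macrophage score (right) for the 18 tested ABC genes, with 95% intervals from limma; red marks an adjusted p under 0.05. Abcd3 lies below 0 and Abcg1 above 0 in both panels, Abcc6 is red on the macrophage score only, and the Abcc2 interval on the macrophage score runs from −0.22 to 0.23.

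Among the exporters of sterols and phospholipids, Abcg1 was high in the livers with high scores. Abcg1 passes cellular cholesterol to high-density lipoprotein and is made by macrophages as well as by liver cells. Its intensity in mice 1 to 8 was 794, 817, 739, 520, 714, 1058, 561 and 1018. Mice 6 and 8 were the highest, mice 4 and 7 the lowest, and the highest was 2.04 times the lowest. The slope was 0.24 ± 0.051 (SE) log2 units per unit of interferon response score (limma, adjusted p = 0.0163), which is 1.77-fold over the range of the score, and 0.35 ± 0.073 per unit of macrophage score (limma, adjusted p = 0.0139). On the fatty acid oxidation score it was −0.94 ± 0.21 (limma, adjusted p = 0.0201). The call on the interferon response score was lost without mouse 4 (0.0530), 6 (0.109) or 8 (0.0749), and that on the macrophage score without mouse 6 (0.102) or 8 (0.0673). The fatty acid oxidation call was lost without mouse 4 (0.0569), 6 (0.128), 7 (0.0503) or 8 (0.0936). Among the 72 correlations of members with scores, that of Abcg1 with the interferon response score was r = 0.894 (exact permutation p = 0.00476, adjusted over the 72 p = 0.0893), rho = 0.905 (exact permutation p = 0.00456, adjusted p = 0.0657), and r = 0.721 without mice 6 and 8.

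Most macrophage markers moved with these livers too: 15 of the 17 tested rose on the interferon response score. Clec4f (slope 0.05, limma, adjusted p = 0.847) and Msr1 (0.32, limma, adjusted p = 0.0593) did not pass. Bulk liver RNA cannot tell more or fewer cells of a type from more or less RNA per cell. Defining genes of the Kupffer cell such as Clec4f (524 to 1362) and of macrophages such as C1qa (240 to 3656) were measured in every liver. Hepatocyte markers (8 of 10 tested) had a mean log2 level, relative to each gene's own mean, between −0.23 in mouse 5 and 0.20 in mouse 3, with 0 called on any score by limma. At an unadjusted p under 0.05 there were 2 of the 8 on each of the interferon response, macrophage and fatty acid oxidation scores. Over all tested probe sets the shares were 23.1%, 23.8% and 23.4%. The tested T and NK cell markers (3 of 10) lay between −1.52 and 1.80, and 2 of the 3 rose on the macrophage score. Stellate and matrix markers (7 of 8 tested) lay between −0.17 and 0.33, and Col1a1 and Col3a1 rose on that score. The rest of them, Col1a2 among them (−0.07), did not pass, with slopes from −0.08 (Timp1) to 0.12 (Lum). Kdr, of the 3 endothelial markers tested (of 8), fell on the macrophage score by 0.50 (limma, adjusted p = 0.0461). Cdh5 (0.05, adjusted p = 0.904) and Eng (−0.14, adjusted p = 0.577) did not pass by limma on that score. Cd24a, the 1 cholangiocyte marker tested of 6, rose by 0.34 (adjusted p = 0.0483). S100a8, the 1 neutrophil marker tested of 7, had a macrophage slope of 0.71 (adjusted p = 0.0608) and fell on the fatty acid oxidation score (limma, adjusted p = 0.0399). Of the tested B and plasma cell markers (3 of 6) and erythrocyte markers (4 of 6) limma called 0 on any score, with 1 and 2 at an unadjusted p under 0.05 on the macrophage score. The part of these cells in the Abcg1, Abcd3 and Abcc6 slopes was not tested.

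Abca1, which loads cholesterol and phospholipid onto apolipoprotein A-I, did not pass the test on any score. Its intensity ran from 1387 in mouse 1 through a median of 1962 to 2074 in mouse 6, and the slope on the macrophage score was 0.11 with a 95% interval from −0.07 to 0.30. A dimmer Abca1 probe set ran from 367 to 798, and the correlation of both probe sets over the 8 livers was r = 0.598 (exact permutation p = 0.112) and rho = 0.810 (exact permutation p = 0.0218). Abcg2, an exporter of urate and drug conjugates at the canaliculus, was highest in mice 6 and 8 (1466 and 1460) and lowest in mouse 5 (1011). The Abcg2 slope on the macrophage score was 0.15 ± 0.063 (limma, adjusted p = 0.170). The slope of Abcg1 exceeded that of Abcg2 by 0.19, which did not pass the test of the difference (exact permutation p = 0.0914, adjusted p = 0.152 over 5 such differences).

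Abca2 is a lipid transporter of lysosomes and endosomes. Its intensity in mice 1 to 8 was 440, 408, 438, 401, 124, 404, 323 and 480. Mouse 5 stood far below the other 7, which lay within 323 to 480, so that the 3.87-fold range rests on 1 liver. The slope on the macrophage score was 0.31 with a 95% interval from −0.14 to 0.76.

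A list of targets of the sterol receptor LXR and of cholesterol efflux genes (10 tested of 14 listed) gave 1 rising on the interferon response score and 2 rising and 1 falling on the macrophage score. Pltp, the phospholipid transfer protein, rose by 0.47 ± 0.076 log2 units per unit of macrophage score (limma, adjusted p = 0.00285). Npc2, the soluble cholesterol carrier of lysosomes, rose by 0.30 (adjusted p = 0.0467), while its partner Npc1 fell by 0.26 (adjusted p = 0.0351), both by limma on the macrophage score. Apoe, named by the rule for lists, had a slope of −0.10 (adjusted p = 0.566).

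Among the transporters of the canalicular and sinusoidal membranes, Abcc6 passed the test. Abcc6 acts at the sinusoidal side of hepatocytes and releases ATP, the source of the mineralization inhibitor pyrophosphate. Its intensity in mice 1 to 8 was 841, 953, 946, 954, 1081, 633, 865 and 600. Mice 6 and 8 were the lowest, clear of the other 6, which lay between 841 and 1081. It fell by 0.27 ± 0.071 log2 units per unit of macrophage score (limma, adjusted p = 0.0395) and rose by 0.78 ± 0.19 per unit of fatty acid oxidation score (limma, adjusted p = 0.0286). On the interferon response score the slope was −0.17 (adjusted p = 0.0828). The macrophage call was lost without mouse 1 (0.0565), 4 (0.0759), 5 (0.0662), 6 (0.181) or 8 (0.169), and with limma's variance model without trend and robust prior (0.0548), and without mice 6 and 8 together the slope was −0.08 (adjusted p = 0.928). The fatty acid oxidation call was lost without mouse 2 (0.0527), 4 (0.0569), 6 (0.182) or 8 (0.165). The correlation with that score was r = 0.879 over all 8 livers (exact permutation p = 0.0196, adjusted over the 72 p = 0.133). Without mice 6 and 8 it was r = 0.051. On ranks, rho was 0.738 with that score (exact permutation p = 0.0458, adjusted p = 0.275). With the macrophage score rho was −0.619 (exact permutation p = 0.115, adjusted p = 0.414).

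Abcc3, which exports glucuronides to blood, had 9110, 9018, 6424, 7715, 9892, 5893, 8208 and 5908. Mice 6 and 8 were again the lowest. The slope was −0.25 ± 0.075 on the macrophage score (limma, adjusted p = 0.0698) and so did not pass.

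Abcc2, the canalicular exporter of bilirubin glucuronide and other conjugates, had 821, 804, 769, 900, 1001, 892, 1205 and 1284. Mice 7 and 8 were highest although they lie at opposite ends of the scores, and the macrophage slope was 0.01 with a 95% interval from −0.22 to 0.23. That slope near 0 rests on mice 6 and 8. Without them the correlation with the macrophage score was r = −0.874, against 0.027 over all 8 livers. With the interferon response score it was r = −0.832 without them, against −0.088. Abcc5, an exporter of cyclic nucleotides, had 125, 237, 237, 187, 156, 262, 232 and 266, highest in mice 6 and 8, with a slope of 0.24 and an interval from −0.05 to 0.52. The slope of Abcc6 lay below that of Abcc5 by 0.51 (exact permutation p = 0.0178, adjusted p = 0.0890 over the 5 differences, which were picked after the slopes were known), below that of Abcc2 by 0.28 (adjusted p = 0.203) and below that of Abcc3 by 0.03 (adjusted p = 0.757), by the same exact permutation test. For Abcc5 the difference had rho = −0.595 (exact permutation p = 0.132), and r went from −0.795 to −0.240 without mice 6 and 8. Without these mice r turned from −0.545 to 0.694 for Abcc2 and from −0.129 to 0.212 for Abcc3.

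Abcb4 places phosphatidylcholine in bile. It ran from 1686 in mouse 6 through a median of 2229 to 2890 in mouse 5, and its slope on the macrophage score was −0.21 ± 0.065 (limma, adjusted p = 0.0713). With a stricter limit on brightness, the 75th percentile of all values, that slope was −0.23 and was called (adjusted p = 0.0401). Abcb1a, a P-glycoprotein, lay between 189 and 335, with a slope of 0.07 (interval −0.17 to 0.32). Part of its signal may be shared with its close copy Abcb1b. Of the fixed bile formation list 6 of 12 were tested, and Slc10a1, the sinusoidal bile acid importer, fell by 0.22 ± 0.046 per unit of interferon response score (limma, adjusted p = 0.0158). Cyp8b1, the sterol hydroxylase that makes cholic acid, fell by 0.17 on it (adjusted p = 0.0416), against 2.88% of all probe sets falling. Its macrophage slope of −0.22 did not pass (limma, adjusted p = 0.0938). The other tested genes of that list (Cyp7a1, Nr0b2, Nr1h4 and Nr5a2) passed on neither score. Of the xenobiotic sensing list 10 of 11 were tested and 1 rose on either score, Gclc, which makes the glutathione precursor (0.36 on the macrophage score, adjusted p = 0.00801). Cyp3a11, a drug-metabolizing cytochrome P450, had a slope of −0.12 on that score (adjusted p = 0.209).

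**Figure D3:**
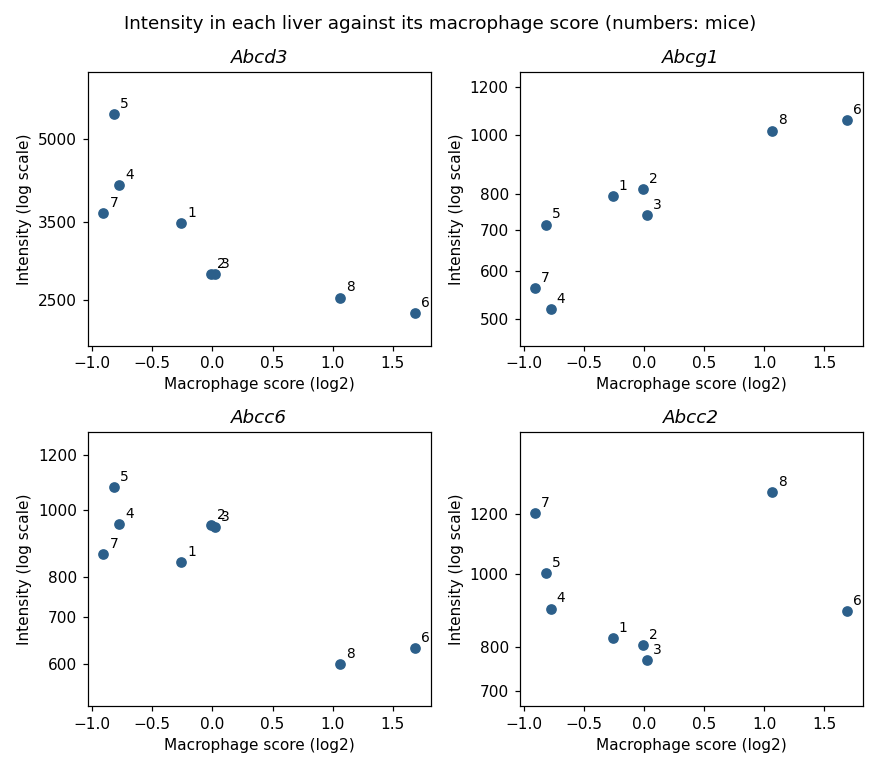
Intensity (log axis) of Abcd3, Abcg1, Abcc6 and Abcc2 in each of 8 livers against the macrophage score of that liver, with the mouse number beside each point. Mice 6 and 8, at scores of 1.69 and 1.06, hold the 2 lowest values of Abcd3 and Abcc6 and the 2 highest of Abcg1. Abcc2 is 892 in mouse 6 and highest, at 1284, in mouse 8, and falls with the score in the other livers (r = −0.874).

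The peroxisomal member Abcd3 showed the steepest fall on the interferon response score of the family. Abcd3 is an abundant protein of the peroxisomal membrane that imports long-chain and branched acyl-CoA and the precursors of bile acids. Its intensity in mice 1 to 8 was 3478, 2796, 2794, 4106, 5580, 2356, 3636 and 2522. Mice 6 and 8 were the lowest, mice 5, 4 and 7 the highest, and the range was 2.37-fold. It fell by 0.27 ± 0.055 log2 units per unit of interferon response score (limma, adjusted p = 0.0139), or 1.89-fold over the range, and by 0.37 ± 0.088 per unit of macrophage score (limma, adjusted p = 0.0283). On the fatty acid oxidation score the slope was 0.89 ± 0.29 and did not pass (adjusted p = 0.0920). The correlation with the interferon response score was r = −0.878 (exact permutation p = 0.00342, adjusted over the 72 p = 0.0893) and rho = −0.905 (exact permutation p = 0.00456, adjusted p = 0.0657), and r = −0.794 without mice 6 and 8. The interferon call was lost without mouse 6 (0.0802) or 8 (0.0550), and the macrophage call without mouse 4 (0.0681), 6 (0.0857) or 8 (0.0923). With no limit on brightness no member was called on any score, and the Abcd3 adjusted p was 0.0824 on the interferon response score (limma). That setting changed the number of probe sets adjusted for, the scores and the variance model together.

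The other tested member of that subfamily, Abcd2, which takes very long-chain acyl-CoA, lay between 232 in mouse 3 and 428 in mouse 1, with a macrophage slope of −0.02 and an interval from −0.25 to 0.22. The difference between the slopes of Abcd3 and Abcd2 was −0.35 (exact permutation p = 0.0560, adjusted p = 0.140 over the 5 differences). Over the 8 livers Abcd2 and Abcd3 had r = 0.084 (exact permutation p = 0.851) and rho = −0.048 (exact permutation p = 0.935), and r = 0.485 without mice 3 and 5.

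Abcd3 followed Pex19, which carries newly made membrane proteins to the peroxisome. Pex19 had 1029, 982, 1069, 1252, 1229, 844, 1167 and 925 in mice 1 to 8, with mice 6 and 8 lowest and 4 and 5 highest, as in Abcd3. Their correlation was r = 0.880 (exact permutation p = 0.00394, adjusted over 11 pairs p = 0.0217) and rho = 0.905 (exact permutation p = 0.00456, adjusted p = 0.0251), and r = 0.885 without mice 5 and 6. It was not called without mouse 2 (adjusted p = 0.0589), 6 or 8 (0.0764 each), by the same exact permutation test. Of the 23 pairs of known partners that were listed, 11 had both genes bright enough, and the other member pairs had r between −0.681 (Abca1 with Apoa1, exact permutation p = 0.0695, adjusted p = 0.255, rho = −0.738, r = −0.819 without mice 1 and 5) and 0.437 (Abcc2 with Abcg2, adjusted p = 0.739). The pair of Abca1 and Apoa1 depended on the processing. With the mean of all tested probe sets of every gene it was called, at r = −0.938 (exact permutation test, adjusted p = 0.00668), which made 3 pairs. Quantile normalization gave r = −0.237, which was not called.

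Of the peroxisome membrane and import list 10 of 16 were tested, and 2 fell on either score, Pex19 and Scp2, the sterol carrier and thiolase. Scp2 fell by 0.25 ± 0.041 per unit of interferon response score (limma, adjusted p = 0.00516). On that score 7 of the 10 had an unadjusted p under 0.05, against 23.1% of all tested probe sets.

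**Figure D4:**
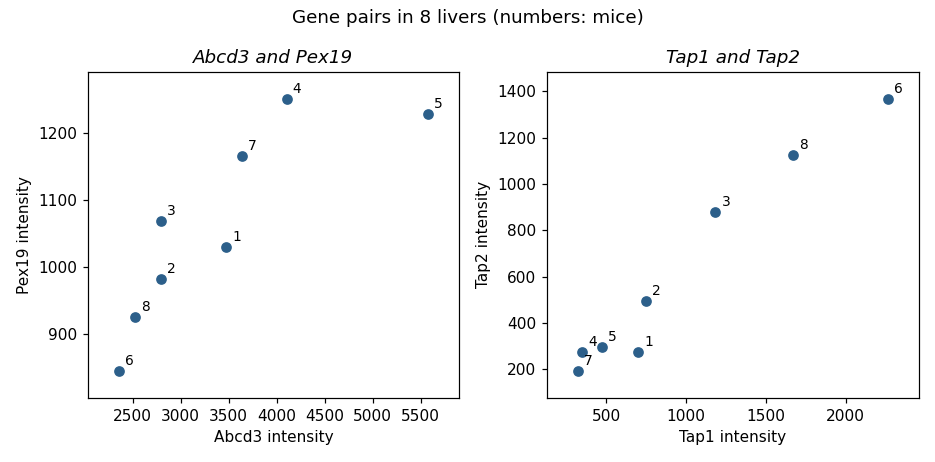
Intensity of Pex19 against Abcd3 (left) and of Tap2 against Tap1 (right) on linear axes, 1 point per liver with its mouse number. Mice 6 and 8 lie at the low end of the Abcd3 and Pex19 plot and at the high end of the Tap1 and Tap2 plot.

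Tap1 and Tap2 belong to the same protein family under other symbols, so they are no members by the rule; together they pump peptides into the endoplasmic reticulum for class I presentation and are known interferon targets. Tap1 had 702, 747, 1185, 350, 474, 2263, 323 and 1673 in mice 1 to 8, a 7.0-fold range, and Tap2 ran from 194 to 1367, a 7.06-fold range. Both were highest in mice 6 and 8 and lowest in mouse 7. On the interferon response score Tap1 rose by 0.75 ± 0.048 (limma, adjusted p = 2.53e-05) and Tap2 by 0.75 ± 0.085 (limma, adjusted p = 0.000599). Their correlation was r = 0.959 (exact permutation p = 0.000149, adjusted p = 0.00164) and rho = 0.929 (exact permutation p = 0.00223, adjusted p = 0.0246), and r = 0.890 without mice 6 and 8. Cftr, the chloride channel of the C subfamily, was too dim.

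The mitochondrial members and the lysosomal Abcb9 showed little. Abcb10, which helps heme synthesis at the inner mitochondrial membrane, had 250, 197, 187, 233, 127, 199, 212 and 197 in mice 1 to 8, with mouse 5 below the rest and the other 7 within 187 to 250. Abcb8, of the same membrane, lay between 354 and 493, and Abcb9, a peptide pump of lysosomes, between 201 and 253, the narrowest range of the 18 at 1.26-fold. Their adjusted p was at least 0.821 on the interferon response score by limma. In the iron-sulfur and heme list (11 of 15 tested) Hmox1, which breaks heme down, rose by 0.74 ± 0.091 per unit of macrophage score (limma, adjusted p = 0.000611), and the others did not pass. Alas1, the first enzyme of heme synthesis, had a slope of −0.16 (adjusted p = 0.0863).

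The members that act on ribosomes did not pass either. Abce1, which splits ribosomes after termination, had 555, 848, 563, 747, 773, 514, 676 and 523 in mice 1 to 8, lowest in mice 6 and 8, and its slope on the interferon response score was −0.15 ± 0.056 (limma, adjusted p = 0.124). Abcf1, which takes part in translation initiation, lay between 979 and 1526, with a macrophage slope of −0.07 and an interval from −0.27 to 0.12. Abcf3 lay between 131 and 276, a 2.11-fold range close to the limit on brightness. In the list for translation initiation and ribosome recycling, 7 of 11 were tested and Hbs1l, a ribosome rescue factor, fell by 0.16 on the interferon response score (limma, adjusted p = 0.0300). Eif2s3x, a subunit of initiation factor eIF2, had a slope of −0.07 on that score (adjusted p = 0.372). Etf1, of the same list and paired with Abce1, had r = −0.328 with Abce1 (exact permutation p = 0.439, adjusted p = 0.851).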

How the data were processed

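Liver RNA of 8 mice was measured on 1 Affymetrix U74Av2 array each, per the labels. The deposited values are 1 linear intensity per probe set and array; the authors' summarizing software was not given in the sources. The mean without the lowest and highest 2% was 500.352 to 500.422 on each of the arrays, and no further scaling was applied to the values in the main fits. All columns matched a mouse.

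Intensities were raised to a floor of 37.2 (25th percentile of all values), and the deposited intensity was converted to log2. Testing was limited to means at or above 165.2, with 66 control probe sets left out. Of the rest, 10833 had 1 symbol, 396 several and 1193 none. All 28 probe sets of the family were found by Entrez identifier in RefSeq's gene list. Spread and slopes used limma 3.58.1 in R 4.3.3 (trend, robust), at an adjusted p of 0.05 (Benjamini-Hochberg), and correlations used the exact two-sided permutation test over 40320 pairings of the mice. The scripts were tested on simulated data.

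The members and gene lists were chosen with earlier results of these data known. All 8 values are printed for members called in a fit or pair, for the 8 with the largest F and for tested members in which 1 mouse stands apart by Dixon's test. Outside the family the text names Tap1, Tap2, pair genes, in each list the gene whose probe set is brightest (a rule for choosing names, not a comparison of transcript levels) and up to 2 called ones (for the LXR list, 3); the cell type markers named were picked after their values were seen. Differences between slopes of related members, and the setting without mice 6 and 8, were added after seeing the data. Alternatives were other floors, filters, scalings, variance models and probe set choices, an added score, and each mouse left out. The number of arrays limits the precision.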

Additional observations from a re-analysis of the deposited data

Results flagged for a closer look

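In 4 of the 25 members 1 liver stood apart from the other 7 by Dixon's test at its 95% level, on the intensity or the log2 scale. Chance alone flags about 1 group in 20 on 1 scale, and more where either scale counts. Some of 25 members can thus be flagged by chance. Abca2 in mouse 5 was 124.2, against 322.6 to 480.1 in the others. Abcb10 was also lowest in mouse 5, at 127.1, against 187.1 to 250 in the others, and stood apart on the log2 scale only. The same array had the lowest median of the 8, at −0.18 on the log2 scale from that of the table, and its part in these values was not tested. Abcc9 in mouse 2 was 195.3, against 100.9 to 144.1, and Abcc8 in mouse 1 was 112.7, against 31.9 to 59.5. These Abcc9 and Abcc8 probe sets were too dim to test. Another Abcc8 probe set, dimmer still, did not show mouse 1 apart. It had 31.6 in mouse 1, between 7.2 in mouse 2 and 62.2 in mouse 6.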

How the results depend on the processing

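Without a limit on brightness the number of members called was 0 on each of the interferon response, macrophage and fatty acid oxidation scores, and 265 probe sets in all on the interferon response score. With arrays scaled to a common median it was 4 members on the interferon response score and 5 on the fatty acid oxidation score, with 921 probe sets on the latter. With the macrophage score added to the model, the interferon response score called 0 members and 1 probe set, and the slopes of Abcc6 (0.12), Abcb4 (0.16) and Abcg2 (−0.13) turned; with the interferon response score added, the fatty acid oxidation score called 0 members and 0 probe sets, and Abcd3 turned to −0.68. Without mice 6 and 8 those 3 scores called 0 members and 15, 20 and 0 probe sets, 0 pairs were called, and the slopes of Abcg2 turned to −0.021, −0.030 and 0.32 and that of Abcb4 on the fatty acid oxidation score to −0.30. In each case the cause was not tested. Leaving out 1 mouse gave 0 to 3 members on each of the 3 scores, 138 to 505, 168 to 556 and 124 to 644 probe sets, and 1 to 2 pairs. Abcd3 kept its sign in every alternative on the interferon response score (−0.33 to −0.21, called in 14 of 19), as did Abcg1 (0.11 to 0.28, 13 of 19). Spread gave 0 members and 0 of all tested probe sets in all 16 alternatives, and the sterol synthesis score 0 members in all 18. No paired analysis was possible because there is 1 group. Dim signal limits 7 members, and all calls rest on 8 livers of which mice 6 and 8 set one end of these 3 scores. Abcc6 lost its macrophage call with the plainer variance model, Abcb4 gained one with the stricter brightness limit, and the mean of all probe sets gave 3 pairs.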
